A study of Drosophila melanogaster with 6 samples.

Results

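The delta class of glutathione S-transferases (GSTs) is carried in the fly by a run of neighboring genes on arm 3R, and 10 of these genes, GstD1 to GstD10, are described here in follicle cells expressing human AKT1. They were taken by FlyBase identifier, with no cut on their values. The set was chosen with earlier results of these data known. All 10 had a row among the 17493 genes of the matrix, GstD3 under the identifier that the annotation gives for its symbol. The identifiers were FBgn0001149 (GstD1), FBgn0010038 (GstD2), FBgn0010039 (GstD3), FBgn0010040 (GstD4), FBgn0010041 (GstD5), FBgn0010042 (GstD6), FBgn0010043 (GstD7), FBgn0010044 (GstD8), FBgn0038020 (GstD9) and FBgn0042206 (GstD10). RNA-Seq was performed on 18 libraries in 6 groups of 3. The Q79K-W80R group expressed the double mutant of AKT1 whose 2 substitutions lie in the pleckstrin homology domain. The T5, T1 and T15 groups each expressed a form with its own tandem duplication in that domain. The WT group expressed unmutated human AKT1, and the LP group carried the empty landing pad and no AKT1 transgene. All 6 groups carried tj-Gal4, which drives UAS transgenes in somatic cells of the ovary, follicle cells included. The transgenes were inserted at the same landing site, with 1 insertion line per form, so that a form and its line cannot be told apart. Each library came from 30 pairs of ovaries of an individual cross, digested with trypsin and collagenase and passed through a mesh, and the sources used here give no age for the flies.

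GSTs join the tripeptide glutathione to reactive or fat-soluble compounds, which makes these easier to neutralize and export, and some also reduce lipid peroxides. Delta-class GSTs are an insect family best known from insecticide metabolism. In flies, GstD1 is a classical target of CncC, the relative of mammalian Nrf2 that is held back by Keap1 and released under oxidative stress, and reporters built on its regulatory region are used to read that pathway. AKT is the kinase through which insulin and PI3K signaling promotes growth and survival.

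The deposited values are counts per gene divided by a size factor per library, called normalized counts below. Their totals were 23572559 to 34164960.3 per library, and 1 read was worth about 0.785 to 1.345 normalized counts, so that a value of 0 allowed up to about 3 reads, or 2.35 to 4.04 normalized counts, as counting error only. The third T1 library stood apart from its group. In values centered per gene over 7726 genes it was nearest to the first T15 library (r = 0.60) and its best correlation with a T1 library was −0.34. The first WT library was in turn nearest to that T1 library (r = 0.47), against at most 0.12 with a WT library. The second WT library held 22.1% of its counts in mitochondrial genes. Follicle cell markers were present in every library, among them tj, which ranged between 8521 and 20471. Digestive enzyme transcripts of the midgut (36 genes) also occurred, and their sum was 28.2 to 58.5 in Q79K-W80R, 1492 to 3330.3 in T5, 76.0 to 8325 in T1, 12.6 to 211 in T15, 42.2 to 21773 in WT and 5139 to 10582 in LP. In such bulk preparations, more cells of a type and more RNA per cell cannot be told apart.

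The levels of the 10 genes lay far apart. Per kilobase of annotated exon, GstD1 averaged 28846 in Q79K-W80R libraries, followed by GstD2 at 9257, GstD3 at 3976 and GstD9 at 748. In LP libraries GstD1 averaged 9593, followed by GstD3 at 1981, GstD2 at 568 and GstD9 at 398, so that GstD2 and GstD3 changed places. The lowest there were GstD10 at 47.1, GstD4 at 35.2, GstD7 at 14.9, GstD5 at 12.8, GstD8 at 1.51 and GstD6 at 1.44. Of the 10 genes, 9 had their highest group mean in Q79K-W80R. In 7 of these, the low GstD6 among them, each Q79K-W80R library was above all 15 others. How many of all genes show these orders was not counted, so the counts are no result about the members. Every Q79K-W80R library was above every WT library in 22.4% of 9047 genes, and above every LP library in 24.8% of 9073. The lowest group mean was that of WT in 5 genes and that of LP in 3.

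**Figure D1:**
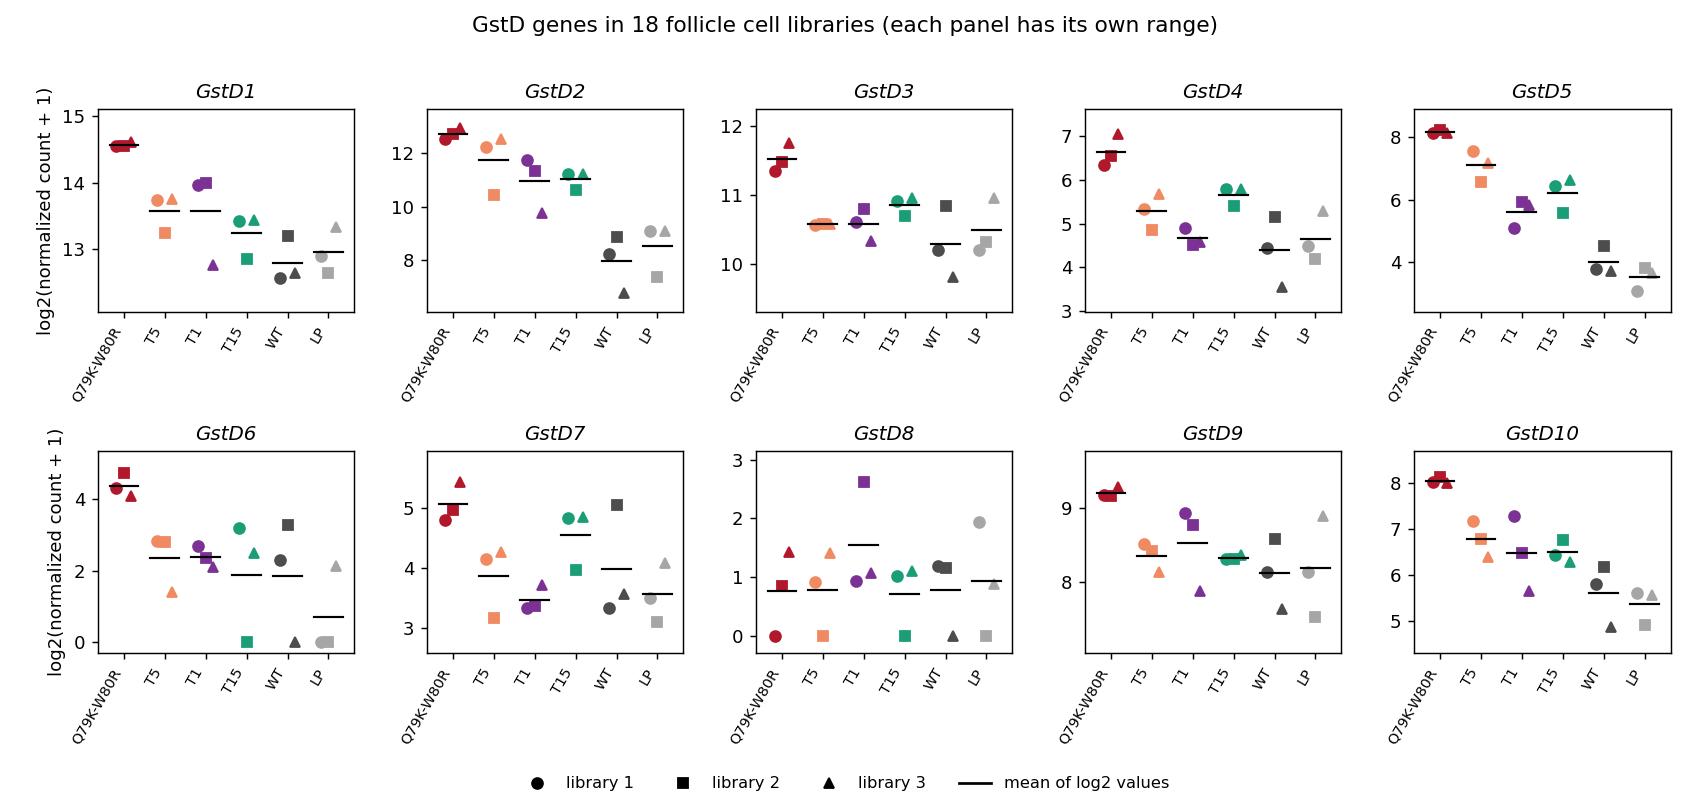
Log2(normalized count + 1) of each GstD gene in each library, by AKT1 line, with 1 panel per gene and a range of its own in each. Symbols mark libraries 1 to 3 and bars the mean of the log2 values. The Q79K-W80R libraries lie above every other library in GstD1, GstD3, GstD4, GstD5, GstD9, GstD10 and the low GstD6. The share of all genes with this order was not counted.

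GstD1, the most abundant member, had 23934, 24079 and 24938 normalized counts in Q79K-W80R libraries. It had 13658, 9633 and 13844 in T5, 16003, 16361 and 6962 in T1, and 11025, 7388 and 11033 in T15. The WT libraries had 6026, 9337 and 6358, and the LP libraries 7604, 6405 and 10252. The Q79K-W80R libraries thus lay together and above all others, while the third T1 and the second T15 library lay within the range of WT. GstD1 rose in Q79K-W80R against WT by a Log2FC of 1.78 ± 0.16 (SE, limma, adjusted p = 0.000504), a fold change of 3.42. Pooled over the 12 mutant libraries its Log2FC against WT was 0.95 ± 0.35 and did not pass (adjusted p = 0.140). In the order of group means (Q79K-W80R, T1, T5, T15, LP, WT), the neighbors below Q79K-W80R overlapped in each case.

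GstD9 and GstD10 lie beside GstD1 on the same strand. GstD9 had 574, 569 and 619 normalized counts in Q79K-W80R, 366, 342 and 280.1 in T5, 486, 434 and 235 in T1, and 317, 318 and 329 in T15. It had 281, 382 and 199 in WT and 281, 185 and 474 in LP. Only the Q79K-W80R libraries stood clear of the others here, and GstD9 rose in them against WT by a Log2FC of 1.08 ± 0.22 (SE, adjusted p = 0.0133), a call that was lost when any single Q79K-W80R library was left out (adjusted p = 0.0508 to 0.0623). GstD10 had 256, 279 and 252 normalized counts in Q79K-W80R, 144, 109 and 82.7 in T5, 155, 88.5 and 49.3 in T1, and 86.2, 107 and 77.2 in T15. It had 54.8, 71.6 and 28.4 in WT and 48.0, 29.4 and 46.5 in LP. All Q79K-W80R, T5 and T15 libraries exceeded those of WT and LP, while the third T1 library fell among the WT ones. GstD10 rose in Q79K-W80R against WT by 2.42 ± 0.32 on the log2 scale (SE, adjusted p = 0.00203), a fold change of 5.34.

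GstD2, the first gene on the opposite strand, varied most between groups. It had 5821, 6740.4 and 7822 normalized counts in Q79K-W80R, 4824, 1388 and 5857 in T5, 3448, 2598 and 878 in T1, and 2362, 1585 and 2410.4 in T15. The WT libraries had 299.8, 466 and 109.5 and the LP libraries 538, 167 and 547. Every one of the 12 mutant libraries was above every WT and LP library, the lowest being the third T1 library. The gene rose in the mutants against WT by a Log2FC of 3.65 ± 0.60 (SE, adjusted p = 0.00621), a fold change of 12.5. The call was lost without the third WT library, the lowest of all 18 (adjusted p = 0.0519). In Q79K-W80R the Log2FC against WT was 4.76 ± 0.47 (SE, adjusted p = 0.000632), a fold change of 27.1. It was 3.77 in T5 (adjusted p = 0.0587), 3.0 in T1 (adjusted p = 0.260) and 3.06 in T15 (adjusted p = 0.0637), none of which passed. In the order of group means (Q79K-W80R, T5, T1, T15, LP, WT) only T15 and LP, among neighbors, did not overlap.

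GstD5, at a much lower level, showed a like separation. It had 278, 297 and 277 normalized counts in Q79K-W80R, 184, 94.1 and 142 in T5, 33.3, 58.9 and 55.8 in T1, and 86.0, 46.3 and 97.8 in T15. The WT libraries had 12.9, 22.2 and 12.1 and the LP libraries 7.51, 13 and 11.8. All 12 mutant libraries were again above all WT and LP libraries, and the third T1 library was not the lowest of its group. GstD5 rose in the mutants against WT by a Log2FC of 2.75 ± 0.59 (SE, adjusted p = 0.0205), a fold change of 6.73. That call was lost without the first WT library (adjusted p = 0.109), without the third (adjusted p = 0.103) and without the T5 group (adjusted p = 0.0717). In Q79K-W80R the Log2FC against WT was 4.14 ± 0.25 (SE, adjusted p = 0.000118), a fold change of 17.6. In T5 it was 3.07 ± 0.36 (SE, adjusted p = 0.0323), where leaving out any library but the second of T5 ended the call (adjusted p = 0.0638 to 0.258). The values in T15 and T1 were 2.20 (adjusted p = 0.0745) and 1.60 (adjusted p = 0.319).

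GstD3 was abundant in every group. It had 2596, 2857 and 3446 normalized counts in Q79K-W80R, 1512, 1526 and 1524 in T5, 1559.8, 1782 and 1289 in T1, and 1916, 1659.8 and 1983 in T15. It had 1176, 1834 and 888 in WT and 1176, 1266 and 1992 in LP. The T5, T1 and T15 libraries lay inside the range spanned by WT and LP, and the Q79K-W80R libraries above it. GstD3 rose in Q79K-W80R against WT by a Log2FC of 1.25 ± 0.25 (SE, adjusted p = 0.0125), which was lost without the third Q79K-W80R library (adjusted p = 0.0589). GstD4 had 79.9, 92.2 and 130.2 normalized counts in Q79K-W80R, 39.6, 27.7 and 49.8 in T5, 28.8, 21.7 and 23.1 in T1, and 53.8, 41.6 and 54.2 in T15. It had 20.8, 34.5 and 10.8 in WT and 21.5, 17.2 and 37.8 in LP. GstD4 rose in Q79K-W80R against WT by a Log2FC of 2.25 ± 0.42 (SE, adjusted p = 0.00882), and all T15 libraries were above all WT ones without passing the test (Log2FC 1.27, adjusted p = 0.204).

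GstD6, GstD7 and GstD8, the last 3 genes of the run, were low, and GstD6 and GstD8 were near the limit of detection. GstD6 had 18.8, 25.2 and 16.0 normalized counts in Q79K-W80R and at most 8.62 in any other library, with 4 libraries at 0. It entered the tests only through Q79K-W80R, the WT libraries having 3.88, 8.62 and 0 and the LP libraries 0, 0 and 3.36, close to the floor. It was called against LP and not against WT (adjusted p = 0.0677), and neither is read as a result, since at such levels the test depends on the pseudocount of 1. GstD7 had 26.7, 29.9 and 42.1 in Q79K-W80R, while WT had 9.07, 32.0 and 10.8, so that the second WT library overlapped. GstD7 did not pass against WT (Log2FC 1.08 ± 0.49, SE, adjusted p = 0.166), and without that library it did (adjusted p = 0.0133). GstD8 ranged between 0 and 5.17 over the 18 libraries, was at 0 in 5 of them, and was not tested in any comparison. The members are related copies, and reads that fit several of them are divided by estimation, so the split among near-identical stretches carries an uncertainty that these values do not show.

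The comparisons differed in how many members passed. A gene was called a DEG when its p, adjusted over all genes tested, was under 0.05 and the change was 1.5-fold or more, up or down. The test took in genes reaching 10 normalized counts in 3 or more libraries of the comparison. A low member can enter that way through the group where it is high. In the mutants against WT, 2 of 9 tested members were DEGs, both higher, where 1.29% of 9605 genes were higher. In Q79K-W80R against WT, 7 of 9 were higher (7 of 8 leaving out GstD6), against 8.8% of 9047 genes. T5 against WT had 1 of 8 (0.439% of all genes). T15 against WT had 0 of 8 (0.236% of all genes), with 5 at an unadjusted p under 0.05, as had 1514 of 8890 genes. Same-numbered T15 and WT libraries were weakly correlated (r = 0.15, 0.17 and 0.12), but neither the labels nor the methods state a pairing. With the replicate number as a block in limma, GstD2 (adjusted p = 0.0257) and GstD5 (adjusted p = 0.0471) were higher in T15, as were 0.607% of genes. Leaving out the second WT library gave 4 (1.86% of genes), GstD2, GstD3, GstD4 and GstD5. T1 against WT had 0 of 8 by limma, with 2 at an unadjusted p under 0.05 (963 of 9175 genes), and no gene at all was higher (0.0%). Without the third T1 library, GstD1 (Log2FC 1.19, adjusted p = 0.0296) and GstD2 (Log2FC 3.59, adjusted p = 0.0229) were higher in T1, as were 4.19% of genes. No member was a lower DEG in any comparison run. These comparisons share the WT libraries.

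Separation of the libraries, without a test, was more frequent than DEGs in the single forms. Every library of one group was above every library of the other for 2 of 9 members in the mutants against WT (2.53% of genes). In Q79K-W80R against WT this held for 8 of 9 (22.4% of genes). That count includes GstD6, which entered only through Q79K-W80R, so that its separation is no result. The same held for 4 of 8 in T5 (13.9% of genes), 2 of 8 in T1 (7.91% of genes) and 4 of 8 in T15 (12.1% of genes). The median Log2FC over members that passed the filter was 0.95 in the mutants and 2.25 in Q79K-W80R (1.06 and 2.01 leaving out GstD6), where the medians over all genes were −0.01 and 0.0032.

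**Figure D2:**
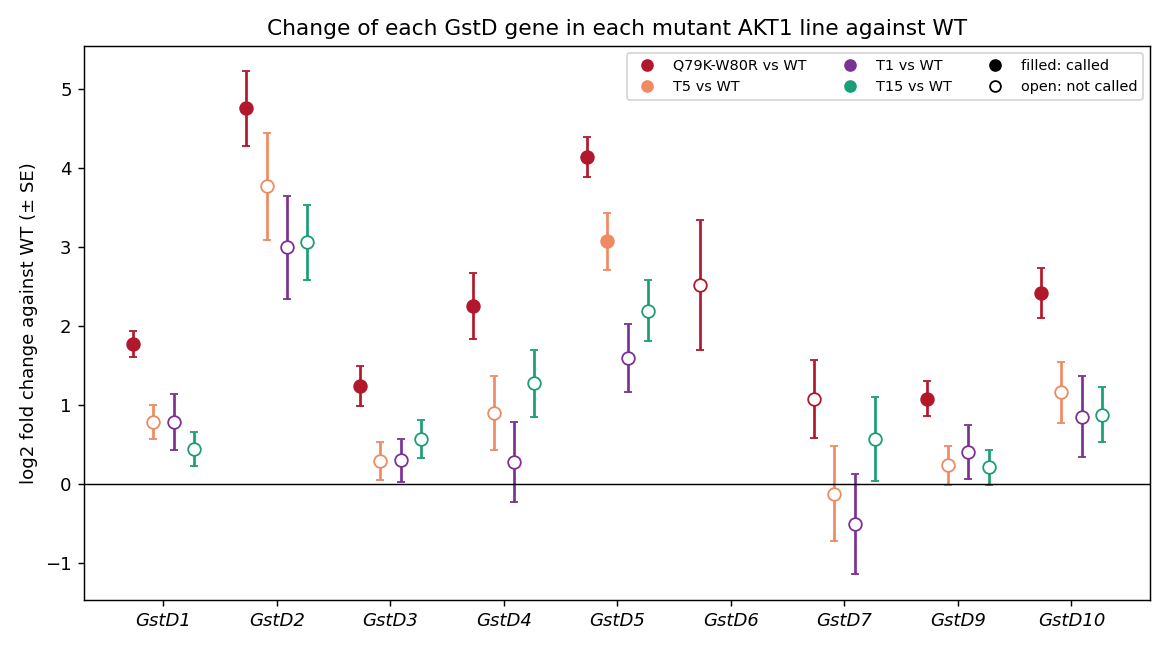
Log2FC of each tested GstD gene in each mutant line against WT, with its SE as the bar. Filled points are DEGs and open ones are not; in Q79K-W80R 7 of 9 tested genes are filled, in T5 GstD5 alone, and in T1 and T15 none. GstD6 was tested in Q79K-W80R only.

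No member differed between WT AKT1 and the empty landing pad by the test. In WT against LP, 0 of 8 tested members were DEGs by limma and 0 had an unadjusted p under 0.05 (1407 of all genes did), where 0.353% of 9073 genes were higher and 0.0661% lower. Log2FC values lay between −0.56 for GstD2 and 0.49 for GstD5. Set against LP, which carries no AKT1 transgene, all 8 tested members other than GstD6 were higher in Q79K-W80R (10.4% of genes), with Log2FC values between 1.01 for GstD9 and 4.63 for GstD5. In LP, GstD5 had 7.51, 13 and 11.8 normalized counts and GstD7 10.3, 7.56 and 16.0. Neither reached 10 in every LP library, so against LP both passed the filter only with libraries of the other group. Their Log2FC values against LP rest on low LP values. The GstD9 call was lost without any single Q79K-W80R library, without the first LP library and in a fit with no trend (adjusted p = 0.0654 to 0.0892), and that of GstD7 without the third Q79K-W80R library (adjusted p = 0.0589). GstD2, GstD5 and GstD10 were higher in T5 (1.99% of genes) and in T15 (4.2% of genes). In T5 the calls of GstD2 and GstD10 sat at the threshold (adjusted p = 0.0466 and 0.0450). They were lost when the first or the third T5 library or any LP library was left out (adjusted p = 0.091 to 0.158 for GstD2 and 0.0803 to 0.155 for GstD10). In T15 the GstD2 call was lost without the first T15 library (adjusted p = 0.0517), and that of GstD10 without the first or the second T15 library or the first LP library (adjusted p = 0.0503 to 0.0714). In T1 0 of 8 passed (0.472% of genes), with 3 at an unadjusted p under 0.05 (1478 of 9117 genes). Without the third T1 library 4 of 7 passed, where the share of all genes that were higher was 7.84%. The LP libraries are shared by these comparisons.

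Whether the mutant forms differ among themselves was tested in the 12 mutant libraries alone. GstD5 (adjusted p = 0.00881), GstD3 (adjusted p = 0.00991) and GstD4 (adjusted p = 0.0146) differed, 3 of 9 tested members, where 2.45% of 9396 genes did. GstD5 averaged 284 ± 11.3 normalized counts in Q79K-W80R, 140.1 ± 45.2 in T5, 49.3 ± 14.0 in T1 and 76.7 ± 27.0 in T15 (SD, n = 3 each). All 3 calls were lost without the second or the third Q79K-W80R library and that of GstD5 also without the first, and without the third T1 library 7 members passed, where 40.4% of all genes did. For GstD2 no difference among the forms was shown (adjusted p = 0.148), its values in T5 spreading between 1388 and 5857. Leaving out both the second T5 and the third T1 library, a choice made after seeing the data, gave 8 of 9, GstD2 among them (adjusted p = 0.000640), where 43.3% of all genes differed. Over all 6 groups, GstD1, GstD2, GstD3, GstD4, GstD5 and GstD10 varied, 6 of 9 tested members, against 21.3% of 9691 genes.

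The sum over the cluster was 35366 ± 2010.2 normalized counts in Q79K-W80R, 18562 ± 4730.4 in T5, 17533 ± 6953 in T1 and 14353 ± 2766 in T15, against 9231 ± 2566 in WT and 10386 ± 2713 in LP (SD, n = 3 each). Mean sums were thus 3.83 times that of WT in Q79K-W80R and 1.55 times in T15. Its makeup also differed. GstD2 took 19.2% of the mean sum in Q79K-W80R, 21.7% in T5, 13.2% in T1 and 14.8% in T15, against 3.16% in WT and 4.02% in LP. GstD1 took 68.8% in Q79K-W80R and 78.4% in WT. Library by library, GstD2 amounted to 24.3%, 28.0% and 31.4% of GstD1 in Q79K-W80R, 35.3%, 14.4% and 42.3% in T5, 21.5%, 15.9% and 12.6% in T1, and 21.4%, 21.4% and 21.8% in T15. It amounted to 4.97%, 4.99% and 1.72% in WT and to 7.07%, 2.61% and 5.33% in LP. The third T1 library, low in both genes, was thus above every WT and LP library in this ratio, and the T15 libraries were almost alike.

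**Figure D3:**
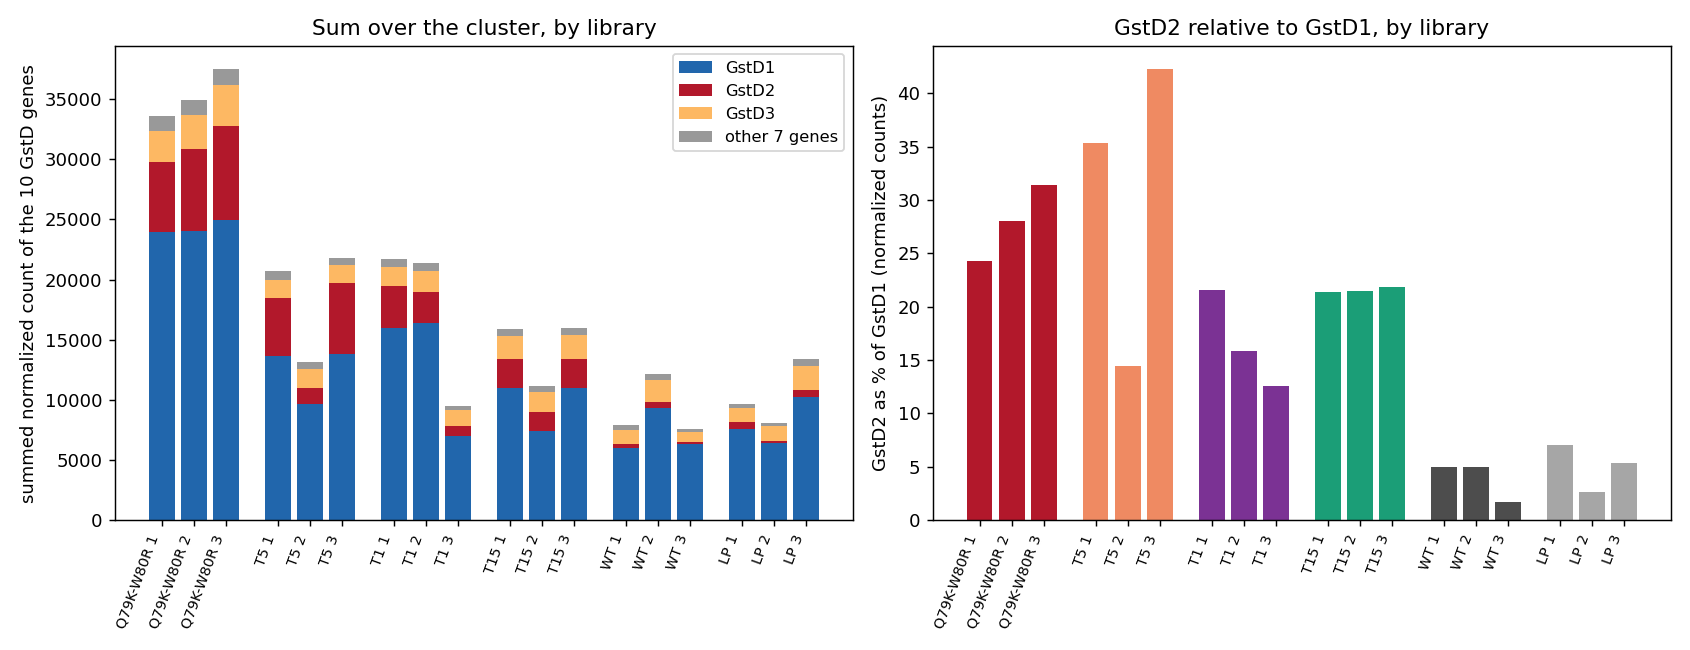
Left, the summed normalized counts of the 10 GstD genes in each library, divided into GstD1, GstD2, GstD3 and the other 7. Right, GstD2 as a percentage of GstD1 in each library, between 12.6% and 42.3% in the 12 mutant libraries and between 1.72% and 7.07% in those of WT and LP.

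Along arm 3R the annotation gives the order GstD10, GstD9 and GstD1 on the minus strand, then GstD2 to GstD8 on the plus strand. The coordinates are left out because no source used here names the genome build behind the values. GstD2 and GstD5, with the largest Log2FC in Q79K-W80R against WT (4.76 and 4.14), are not adjacent, and GstD3 and GstD4 between them had 1.25 and 2.25. A non-coding gene inside the run, lncRNA:CR46015, averaged 24.5 in Q79K-W80R, 11 in T5, 9.76 in T1, 11.3 in T15, 11.5 in WT and 6.2 in LP. On the side of GstD10 the next gene is Tim17a1, of a family of mitochondrial import channel subunits, with 9.73 in Q79K-W80R, 3.94 in T5, 2.20 in T1, 3.86 in T15, 1.32 in WT and 0 in LP. A few genes beyond it MBD-R2, a chromatin protein gene, averaged between 1861 and 1985 in the 6 groups. On the other side CG10035 averaged under 1 in every group. GstD11 was at 0 in Q79K-W80R, T5, WT and LP, and averaged 6.58 in T1 and 0.46 in T15.

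**Figure D4:**
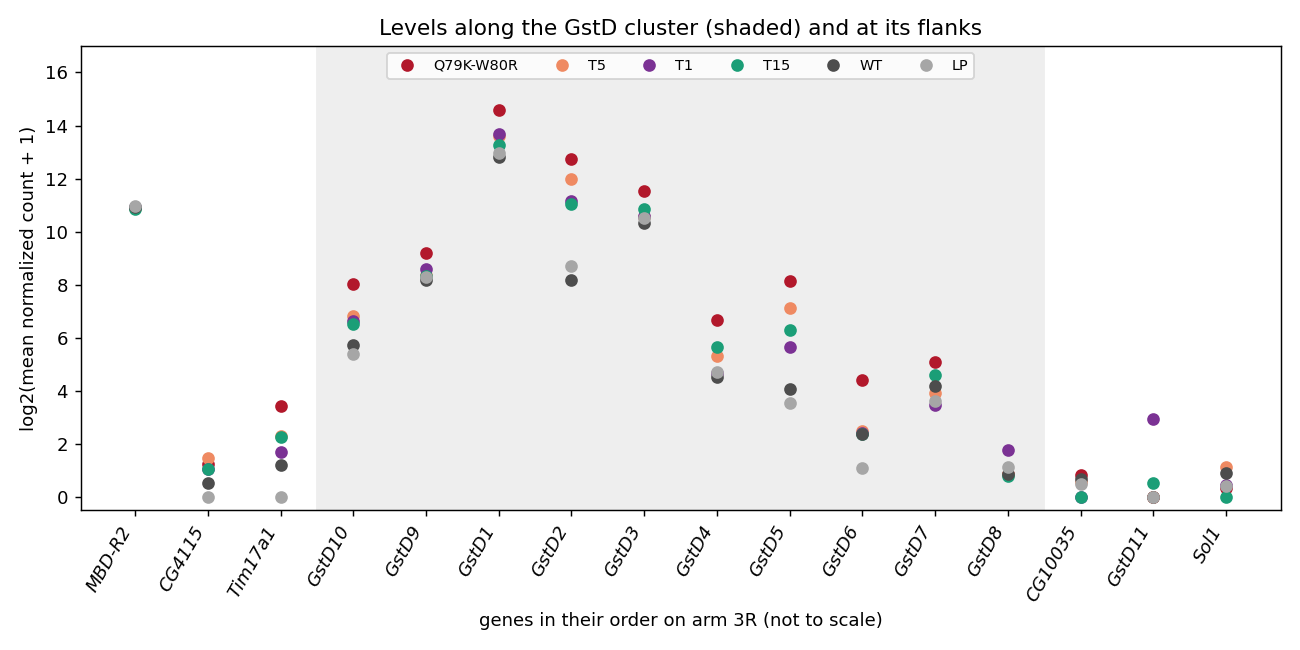
Group means as log2(mean normalized count + 1) for the GstD genes in their order on arm 3R (shaded) and for genes at either flank, not per length and with gene spacing not to scale. MBD-R2 is nearly at the same level in all 6 groups, while inside the run the groups lie furthest apart at GstD2 and GstD5.

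The members varied together over the 18 libraries, which include the group differences. Pearson's r of log2 values was 0.93 for GstD3 with GstD4, 0.89 for GstD2 with GstD5 and with GstD10, 0.87 for GstD1 with GstD2 and 0.84 for GstD9 with GstD10. GstD8 reached at most 0.24 with any other. After removing the group means, r was 0.83 for GstD3 with GstD4, 0.81 for GstD9 with GstD10 and for GstD1 with GstD2, but 0.24 for GstD2 with GstD5 and −0.17 for GstD5 with GstD10. The points share libraries and their depth, and GstD5 is a low gene.

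Outside the family, the patterns most like those of GstD1 and GstD2 were sought among 7720 genes with a mean of at least 50. Closest to GstD1 were CG42365 (r = 0.96), CG14050, CG14907, cathD, which encodes the lysosomal protease cathepsin D, and CG15347 (r = 0.94). The nearest to GstD2 were scyl (r = 0.95), an inhibitor of TOR signaling in flies, rpr (r = 0.94), a cell death inducer, then CG3348, the chloride channel gene ClC-a and CG10621 (r = 0.92). Mean scyl was 14765 in Q79K-W80R, 9965 in T5, 10401 in T1 and 6028 in T15, against 3479 in WT and 4065 in LP. Mean rpr was 243 in Q79K-W80R, 164 in T5, 118 in T1 and 62.7 in T15, against 31.6 in WT and 27.9 in LP.

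Other genes of glutathione and redox metabolism were counted from fixed lists. Among 23 tested GSTs of other classes, 0 were DEGs in the mutants against WT (median Log2FC 0.30) and 9 were higher in Q79K-W80R against WT (median 0.60), none being lower, where 8.8% of all genes were higher. GstE3, of the epsilon class, had a Log2FC of 2.07 ± 0.25 in Q79K-W80R (SE, adjusted p = 0.00129), and GstT4, of the theta class, 1.85 ± 0.11 (SE, adjusted p = 0.000118). GstT3 was at −0.71 without passing (adjusted p = 0.0624). Both medians are below those of the delta members, 0.95 in the pooled mutants and 2.25 in Q79K-W80R (1.06 and 2.01 leaving out GstD6). The difference between the lists was not tested.

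The enzymes that supply NADPH, needed to keep glutathione reduced, were the only list with DEGs in the pooled mutants, 2 of 4 being higher, where 1.29% of all genes were. Zw, glucose-6-phosphate dehydrogenase, rose by a Log2FC of 0.80 ± 0.13 (SE, adjusted p = 0.00633) and Pgd, phosphogluconate dehydrogenase, by 0.97 ± 0.21 (SE, adjusted p = 0.0230). In Q79K-W80R against WT they rose by 1.04 and 1.27, and Idh rose as well by 0.72 (adjusted p = 0.00274). The WT level of this list was itself low, its sum being 13965 to 15628 in WT, against 19013 to 19988 in LP, with Idh lower in WT (Log2FC −0.92, adjusted p = 0.0406). Against LP, 2 of the 4 were higher in Q79K-W80R (10.4% of genes) and 1 in T5 (1.99% of genes). None was higher in T1 (0.472% of genes) or T15 (4.2% of genes), which at such shares is no result for 4 genes. Idh was lower in T15 against LP (Log2FC −0.60, adjusted p = 0.00517), where 4.06% of genes were lower. The sum was 19512 to 22268 in T1 and 17727 to 18939 in T15. Of 15 genes of glutathione synthesis and the thioredoxin system, 3 were higher in Q79K-W80R against WT, again beside 8.8% of all genes, among them the peroxiredoxin Prx2 (Log2FC 0.77, adjusted p = 0.000709) and the thioredoxin reductase Trxr1 (Log2FC 0.68, adjusted p = 0.00367). Of 6 genes removing superoxide and peroxide 1 was higher there, beside 8.8% of all genes. It was Irc, an immune-regulated catalase (Log2FC 1.69, adjusted p = 0.000288). Among 22 tested P450 genes of detoxification 10 were higher and none lower in Q79K-W80R against WT, where 8.8% of all genes were higher. Examples are Cyp12a5 (Log2FC 2.74) and Cyp6a13 (Log2FC 1.2). The medians of these lists in Q79K-W80R against WT were 0.88 for NADPH supply, 0.08 for glutathione and thioredoxin, 0.08 for superoxide and peroxide and 0.88 for P450 genes. Against LP, 14 of 22 P450 genes were higher in Q79K-W80R (10.4% of genes) and 1 was lower (5.18% of genes). No P450 gene was higher against LP in T5 (1.99% of genes), T1 (0.472% of genes) or T15 (4.2% of genes). Lower ones were 1 of 23 in T1 (0.526% of genes) and 2 of 20 in T15 (4.06% of genes). No difference between T5, T1 and T15 is read from these small counts.

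Of 15 genes that regulate or act beside CncC and Keap1, 1 was a DEG in Q79K-W80R against WT, the JNK phosphatase puc (Log2FC 1.04, adjusted p = 0.000323), and the median was 0.31. With 8.8% of all genes higher in that comparison, 1 of 15 is no result about the list. The regulators themselves, named here after their values were seen, did not pass, cnc with a Log2FC of 0.27 (adjusted p = 0.197) and Keap1 with 0.13 (adjusted p = 0.450). RNA levels do not show how active these proteins are. Against LP, 4 of the 15 genes were higher in Q79K-W80R (10.4% of genes). In T5 (1.99% of genes), T1 (0.472% of genes) and T15 (4.2% of genes) 1 was higher in each, and none was lower.

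Markers of the follicle cells went mostly the opposite way to the members in Q79K-W80R. In Q79K-W80R against WT, 6 of 9 follicle cell markers were lower (6.33% of all genes) and 1, Fas3, was higher (8.8% of all genes). There tj was at a Log2FC of −1.02 and the yolk protein gene Yp3 at −1.16. The summed marker level was 666665 to 722965 in Q79K-W80R, 826724 to 1000404 in T5, 514839 to 1014730 in T1 and 1032940 to 1152960 in T15. It was 985318 to 1329469 in WT and 768752 to 1091523 in LP. Most of this sum came from the yolk protein genes Yp1, Yp2 and Yp3. In the first Q79K-W80R library they had 232059, 319529 and 89470 of 666665, so the sum mainly follows these genes. In the pooled mutants against WT 0 of these 9 markers were DEGs. GstD1 had r = −0.88 with the mean of these markers over the 18 libraries and GstD5 −0.55. Germline markers (7 tested) gave 0 DEGs in Q79K-W80R. Muscle markers gave 3 lower ones of 9 (6.33% of all genes), with a summed level of 3136 to 3572 in Q79K-W80R, against 3497 to 13934 in WT. Of the midgut enzymes 3 could be tested there, 1 of which was lower. Against LP, 16 of 17 tested midgut enzymes were lower in Q79K-W80R (5.18% of genes) and 16 of 16 in T15 (4.06% of genes). In both comparisons they passed the filter mainly through the LP libraries, where they are high, so that these counts are no result. In T5 4 of 24 were lower (0.851% of genes) and in T1 0 of 28 (0.526% of genes). Follicle cell markers gave 4 lower (5.18% of genes) and 1 higher (10.4% of genes) of 9 in Q79K-W80R against LP. They gave 0 in T5, T1 and T15, where 0.851%, 0.526% and 4.06% of genes were lower and 1.99%, 0.472% and 4.2% higher. Of 7 germline markers, 3 were lower in T1 (0.526% of genes) and 3 in T15 (4.06% of genes) against LP. Their summed level was 9147 to 10268 in T1 and 7262 to 15927 in T15, against 17091 to 21861 in LP. The part of any of these in the GstD differences was not tested.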

How the data were processed

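RNA was extracted from follicle cell preparations and sequenced as stranded mRNA libraries. Per the labels and methods, the authors demultiplexed with bcl2fastq 2.18.0.12, aligned with Bowtie, estimated counts with RSEM 1.3.1 and used DESeq2. The deposited table holds a signal per gene made by the authors, an estimated count divided by the size factor of its library (a normalized count). Not all of these values are whole multiples of 1 read, so no count test was run. The genome build and annotation were not given in the sources used here. Symbols, strand, gene order and exon lengths came from an Ensembl annotation.

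One member, GstD3, was matched by symbol because the identifier listed for it had no row. The labels of Q79K-W80R list its first 2 libraries, and its other column was assigned by the shared start of its name.

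The values were put on the scale log2(value + 1) and fitted in R 4.3.3 with limma 3.58.1 (lmFit, eBayes with a trend). Genes entered a fit when 3 or more of its libraries reached a value of 10. A fit held only the groups it compared, and moderated F tests covered the 4 mutant forms and the 6 groups. The p values were adjusted by the Benjamini-Hochberg method across every gene in the fit. The fit was tested on simulated data. Fold changes on this scale understate those of low genes. Symbols Trxr-1, Trx-2, Jafrac1, Jafrac2, PHGPx, Nnt, Cyp6a21 and nos of the lists had no row under that name and were not used. Plots were made in Python 3.11.15 with matplotlib 3.10.9.

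All 10 members are named, and from each list at most the 4 genes with the smallest p in the mutants against WT, the flanking genes, and the 5 genes most like GstD1 and GstD2. Fas3, puc, cnc and Keap1 were named outside that rule. The members, lists and tests were chosen with earlier results of these data known. To see whether the replicate numbers pair the libraries, same-numbered libraries were correlated after subtraction of their group means, and only T15 and WT had all 3 correlations above 0.1 (0.15, 0.17 and 0.12).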

Additional observations from a re-analysis of the deposited data

Results flagged for a closer look

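Of the members, 3 differed between the 4 mutant forms in a test of that difference itself. They were GstD3 (adjusted p = 0.00991), GstD4 (adjusted p = 0.0146) and GstD5 (adjusted p = 0.00881), from a moderated F test over the 12 mutant libraries. GstD3 averaged 2966 ± 436 normalized counts in Q79K-W80R, against 1521 ± 7.70 in T5, 1544 ± 247 in T1 and 1853 ± 171 in T15 (SD, n = 3 each). GstD4 averaged 100.8 ± 26.2 in Q79K-W80R, 39.0 ± 11 in T5, 24.5 ± 3.80 in T1 and 49.9 ± 7.21 in T15 (SD, n = 3 each). In both genes T15 was second, while in GstD5 T5 was second.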

How the results depend on the processing

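With 3 libraries per group, the number of GstD DEGs moved easily outside Q79K-W80R. Leaving out 1 library gave 0 to 2 in the mutants against WT, 5 to 9 in Q79K-W80R against WT, 0 to 2 in T5, 0 to 2 in T1 and 0 to 4 in T15 against WT, and 0 in WT against LP. Against LP it gave 6 to 9 in Q79K-W80R, 1 to 4 in T5, 0 to 4 in T1 and 1 to 5 in T15, and 0 to 7 among the 4 mutant forms and 5 to 7 among the 6 groups. The share of all genes moved too, so these ranges are no result about the members. Without the third T1 library it went from 0.0% to 4.19% higher in T1 against WT. It went from 0.472% to 7.84% in T1 against LP and from 2.45% to 40.4% called among the forms. With all 18 libraries in 1 fit, the counts were 6 in the mutants against WT (4.28% of all genes higher), 2 each in T5 (3.22%), T1 (3.6%) and T15 (0.495%) against WT and 2 in T1 against LP (4.17%). Without T5 the pooled mutants had 1 (0.389% of all genes higher). A mean of at least 50 gave 0 in T5 against WT and 1 in T5 against LP, and a fit with no trend gave the same counts of 0 and 1. The share of all genes under either setting is not given here. No filter gave 1 in T15 against WT (0.191% of all genes higher) and the replicate block 2 (0.607%). Quantile normalization gave 1 in T15 against WT (0.292%) and 5 in T15 against LP (4.53%). In no comparison do the labels show that libraries share more than a number. In the other comparisons the block moved no count by more than 1.5 times. With 1 total without mitochondrial and rRNA genes, T5 against WT had 2 (1.9% of all genes higher). The median of all genes then moved by 0.10 in the mutants, 0.18 in Q79K-W80R and 0.14 in T5 against WT and by −0.15 in WT and −0.15 in T15 against LP. Relative to the median under that scaling GstD2 was at 4.75 and GstD9 at 1.07 in Q79K-W80R against WT. Leaving out both the second T5 and the third T1 library, 8 members differed among the 4 forms, as did 43.3% of all genes. The cause of these changes was not tested. No DEG changed sign.

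Log2FC values near 0 that were not DEGs changed sign under some settings. Leaving out 1 library, the mutants against WT gave −0.029 to 1.60 for GstD6 and −0.073 to 0.78 for GstD7. T5 against WT gave −0.45 to 0.41 for GstD7 and −0.0017 to 0.47 for GstD9, T1 against WT −0.13 to 0.66 for GstD4, and T15 against WT −0.029 to 0.44 for GstD9. In WT against LP the ranges were −0.36 to 0.025 (GstD1), −1.12 to 0.028 (GstD2), −0.49 to 0.032 (GstD3), −0.65 to 0.15 (GstD4), −0.11 to 0.74 (GstD7), −0.39 to 0.28 (GstD9) and −0.029 to 0.62 (GstD10). Against LP, T5 gave −0.063 to 0.32 for GstD3 and −0.16 to 0.52 for GstD9, T1 gave −0.054 to 0.33 for GstD3 and −0.22 to 0.32 for GstD4, and T15 gave −0.18 to 0.49 for GstD9. Without Q79K-W80R, GstD7 was at −0.024 in the pooled mutants. With 1 total, T5 against WT gave 0.010 for GstD7, and against LP T1 gave −0.044 for GstD4 and T15 −0.0054 for GstD9. Quantile normalization gave −0.25 for GstD4 in T1 against LP.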
